A study of Mus musculus with 235 samples.

Results

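The genes described here make, sense and move cholesterol in the liver, and their RNA was measured in mice given isoniazid or vehicle. They were named as a module of 32 genes: 20 enzymes of sterol synthesis, 4 genes of sterol sensing, 3 of sterol transport, 3 of the LXR receptors with their ligase target, and 2 of cholesterol esterification. A member was used when the array had a probe set annotated with its symbol alone, and the probe set with the highest mean was taken. This held for 28 of the 32 members, out of 18146 genes measured in the same way. Acat2, Nr1h2, Soat1 and Soat2 were not analysed here. After removal of the dimmest 40% of genes by mean level, 27 of the 28 measured members were left, and Sqle was the one removed.

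The study dosed females from 31 inbred strains at 8 to 10 weeks of age with isoniazid, an antituberculosis drug that can injure the liver, at 100 mg/kg in sterile water or with sterile water alone, by daily oral gavage over 3 days. The left liver lobe was taken 24 h after the final dose, and each of the 235 arrays held the RNA of 1 animal: 124 vehicle animals, 4 in every strain, and 111 isoniazid animals. The labels name no transgene or engineered deletion in any group. Isoniazid groups held 4 animals in 22 strains, 3 in 5 and 2 in 4. The 13 absent isoniazid animals fell in 9 strains that had deaths, so the groups of those strains hold survivors. The labels code 13 strains as developing steatosis, fat storage in liver cells, and 18 as not.

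Values are log2 RMA expression values, so a difference of 1 is a doubling, and a level can be compared between animals for 1 gene but not between genes. The 8 hepatocyte markers measured had mean levels of 13.0 to 13.6 over the strains in both treatments, against a median of 5.16 over all genes. Of the 8, Cps1 rose (0.17), while Hnf4a (-0.20, lower in all 31 strains) and Cyp2e1 (-0.06) fell. Of the other markers, 10 of 14 for Kupffer cells and macrophages fell under isoniazid, against 9.85% of all genes. The median change of that list was -0.22, with 2 falling without animal number 1 and 3 without animal number 2. Here and below, leaving out an animal number drops the arrays with that number from every strain that has them. Also lower were 2 of 10 for sinusoidal endothelium, 1 of 8 for stellate cells, 2 of 3 for B cells, 1 of 2 for red cells and 1 of 5 for bile duct. Of 6 markers for T and NK cells, 0 passed. In bulk tissue, fewer cells of a type and less RNA per cell cannot be told apart. The arrays were scanned on 10 dates. On 21 arrays the log2 values had a narrower spread than on the rest, and several results are given without them below.

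Cholesterol is built from acetyl-CoA through mevalonate, isoprenoid diphosphates, squalene and lanosterol, and the liver is a main site of this synthesis. When membranes are poor in sterol, the escort protein Scap carries the precursor of SREBP2, the product of Srebf2, to the Golgi, where it is cut to release a transcription factor for most of the enzymes. Insig1 and Insig2 hold that complex back when sterol is plentiful, while the LXR receptors respond to oxysterols and switch on genes of cholesterol export.

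Promoter sequence was searched for short motifs in the measured members of all roles and in all genes. RefSeq windows of assembly GRCm38.p6, from 250 bases before to 50 bases after the gene start, were available for 23 of the measured members and for 14411 measured genes in all. The CCAAT box (CCAAT, either strand) was in 20 of the 23 members, 87% against 42% of all genes. The GC box (GGGCGG, either strand) was also in 20, 87% against 57.5%. The sterol element core TCACCCC was in 4 members (Hmgcs1, Srebf2, Insig2 and Nr1h3), 17.4% against 6.13%. The looser form CACNCCA was in 5, 21.7% against 21.2%, and it can overlap TCACCCC by its last bases. These letter matches are descriptions and not binding sites.

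The 250 bases before the gene start, 5′ to 3′ on the gene's strand, are shown for 6 members on which the results below turn. Capitals mark the 2 sterol cores and the CCAAT box on either strand, and a CCAAT box on the opposite strand reads ATTGG. Hmgcs1 (chr13:119690101-119690350, plus strand) and Srebf2 (chr15:82147019-82147268, plus strand) are shown because both hold the sterol core, 131 and 156 bases before the start, with CCAAT boxes nearby.
Hmgcs1: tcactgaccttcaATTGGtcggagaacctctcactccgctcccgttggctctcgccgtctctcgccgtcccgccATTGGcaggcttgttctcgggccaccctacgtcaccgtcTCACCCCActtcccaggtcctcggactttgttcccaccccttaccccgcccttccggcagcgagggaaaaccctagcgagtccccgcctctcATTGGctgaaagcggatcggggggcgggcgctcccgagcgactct
Srebf2: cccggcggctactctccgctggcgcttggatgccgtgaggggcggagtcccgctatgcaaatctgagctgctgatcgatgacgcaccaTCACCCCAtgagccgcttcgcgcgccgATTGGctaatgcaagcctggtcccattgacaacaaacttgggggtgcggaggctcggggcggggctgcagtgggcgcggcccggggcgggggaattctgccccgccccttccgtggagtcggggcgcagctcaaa
Msmo1 (chr8:64733579-64733828, minus strand) and Insig1 (chr5:28071162-28071411, plus strand) are shown as an enzyme and a sensor whose changes differed widely between strains, each with 1 match to CACNCCA.
Msmo1: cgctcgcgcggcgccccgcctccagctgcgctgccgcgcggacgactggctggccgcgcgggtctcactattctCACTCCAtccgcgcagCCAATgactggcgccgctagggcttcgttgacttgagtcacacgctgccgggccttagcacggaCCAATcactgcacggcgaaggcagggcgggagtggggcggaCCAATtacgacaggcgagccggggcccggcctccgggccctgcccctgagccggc
Insig1: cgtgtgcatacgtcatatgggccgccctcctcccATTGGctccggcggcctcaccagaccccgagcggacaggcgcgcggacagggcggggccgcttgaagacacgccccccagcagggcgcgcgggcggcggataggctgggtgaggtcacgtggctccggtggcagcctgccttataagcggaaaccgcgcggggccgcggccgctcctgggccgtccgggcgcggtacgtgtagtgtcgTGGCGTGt
Idi1 (chr13:8885356-8885605, plus strand) and Tm7sf2 (chr19:6067851-6068100, minus strand) are shown as enzymes that moved in opposite directions over the strains. Both hold CCAAT boxes and neither holds either sterol core in these letters.
Idi1: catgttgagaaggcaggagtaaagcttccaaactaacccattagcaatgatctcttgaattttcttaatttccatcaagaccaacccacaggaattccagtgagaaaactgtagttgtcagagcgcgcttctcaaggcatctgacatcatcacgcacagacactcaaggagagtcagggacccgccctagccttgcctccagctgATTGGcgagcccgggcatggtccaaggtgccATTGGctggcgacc
Tm7sf2: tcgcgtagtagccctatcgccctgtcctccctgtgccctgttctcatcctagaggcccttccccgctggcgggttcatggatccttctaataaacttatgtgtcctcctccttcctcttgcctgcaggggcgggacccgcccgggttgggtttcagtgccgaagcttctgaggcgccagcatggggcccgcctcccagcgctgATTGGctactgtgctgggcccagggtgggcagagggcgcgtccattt

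Over the 31 strains, taking the strain as the replicate, 10 members were higher under isoniazid, 4 were lower and 14 did not pass (limma, adjusted p under 0.05 over all genes). Of all genes, 20% passed, 10.2% higher and 9.85% lower. The median change of the 28 members was 0.14 on the log2 scale, against 9.63e-04 over all genes, and 20 of the 28 lay above 0, against 50.6% of all genes. The 10 that rose were 8 synthesis enzymes (Dhcr7, Lss, Hsd17b7, Msmo1, Idi1, Sqle, Ebp and Mvk) with the transport genes Stard4 and Scarb1. The 4 that fell were the enzymes Tm7sf2 and Pmvk, the ligase Mylip and the exporter Abca1. Msmo1 was the 1 member that also passed a change of 1.5-fold, as 0.298% of all genes did, and it lay close to that threshold. Its log2 change of 0.61 was 0.54 without C57Bl/6J, 0.55 without LP/J and 0.31 with the mean of its probe sets, and it fell short of 1.5-fold in 10 of 45 other settings. The other Msmo1 probe set had a mean level of 2.16, under the lower quartile of all genes (3.54), and a change of -3.91e-04. Idi1, just under the threshold, reached it in 22 of the 45.

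**Figure D1:**
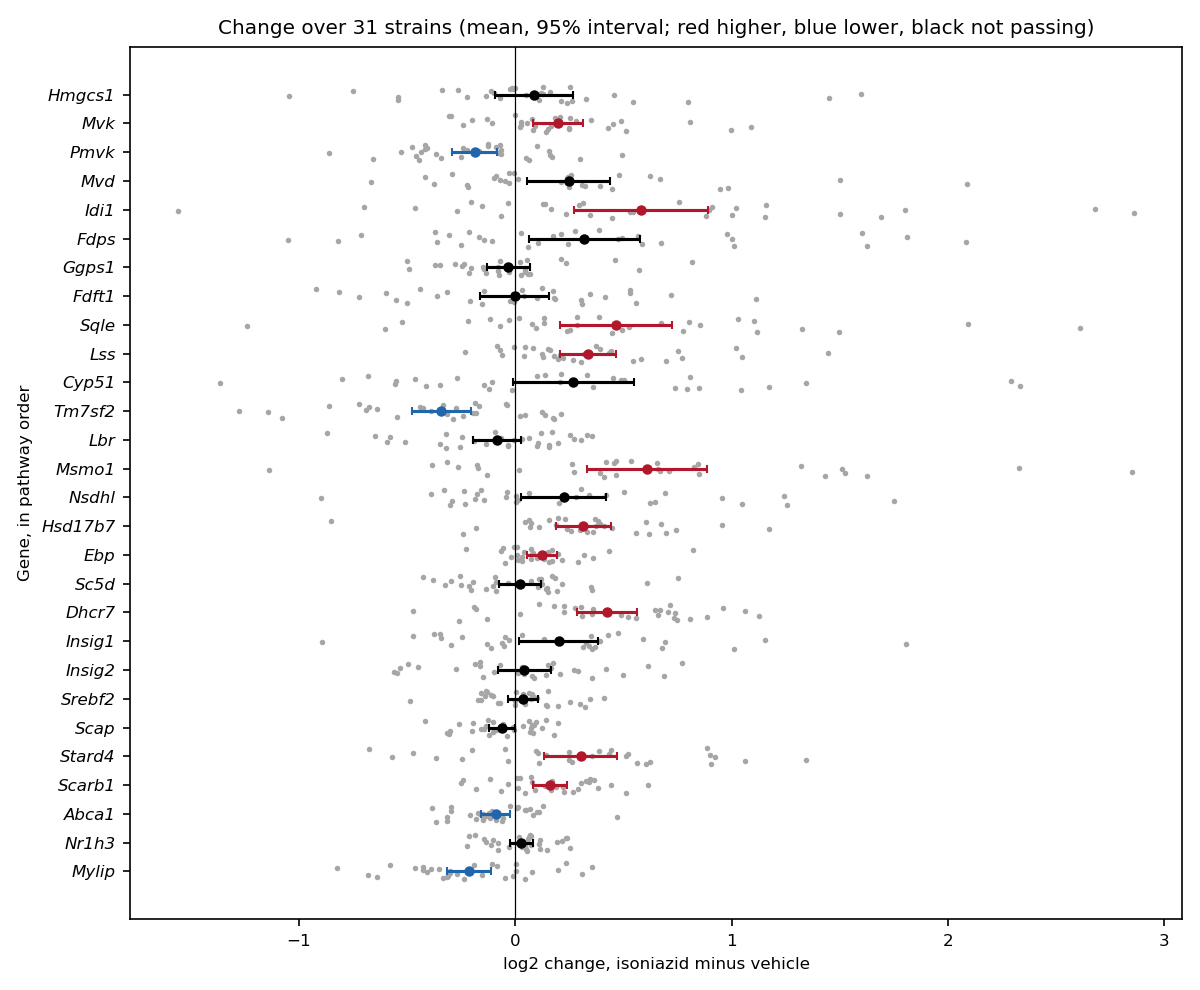
Isoniazid change of the 28 measured members (log2, isoniazid minus vehicle). Grey points are the 31 strains, coloured points and bars the mean and its 95% interval; Msmo1 and Idi1 have the highest means, 0.61 and 0.58, and strains that reach 2.85 and 2.86, while Tm7sf2 has the lowest at -0.34.

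The early steps differed in their mean change over the strains. Hmgcs1, which makes HMG-CoA at the entry to the pathway, ranged over strain means from 8.84 through a median of 9.68 to 10.86 under vehicle and from 8.94 through 9.66 to 11.49 under isoniazid. Its ranges overlapped almost fully, and its mean change was 0.09 (SE 0.09, adjusted p = 0.582), above 0 in 16 strains. Mvk and Pmvk add phosphates to mevalonate in turn, and they moved in opposite directions.

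Mvk ran from 5.90 through 6.54 to 7.15 under vehicle and from 5.93 through 6.71 to 7.87 under isoniazid. It rose by 0.20 (SE 0.06, adjusted p = 0.0113), with a rise in 24 strains. Pmvk ran from 6.15 through 7.00 to 7.60 under vehicle and from 5.62 through 6.78 to 7.74 under isoniazid. It fell by 0.19 (SE 0.05, adjusted p = 0.0066), with a fall in 23 strains. Mvd, which decarboxylates the product of Pmvk, ran from 4.31 through 4.75 to 5.89 under vehicle and from 3.96 through 4.81 to 6.82 under isoniazid. Its mean change was 0.25 (95% interval 0.06 to 0.44, adjusted p = 0.0601), and it passed in 9 of 45 other settings.

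Idi1, which interconverts the isoprenoid building blocks, ran from 4.74 in C57BR/cdJ through a median of 6.58 to 8.33 in AKR/J under vehicle. Under isoniazid it ran from 4.98 through 7.01 to 9.92. The strain ranges overlapped, yet 23 strains showed a rise, by 0.58 on average (SE 0.15, adjusted p = 0.0051). Fdps, which joins the blocks to farnesyl diphosphate, ran from 6.12 through 7.04 to 8.73 under vehicle and from 5.71 through 7.56 to 9.49 under isoniazid. Its mean change was 0.32 (95% interval 0.06 to 0.58, adjusted p = 0.0729).

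Ggps1 and Fdft1 take farnesyl diphosphate to geranylgeranyl diphosphate and to squalene, and neither passed. Ggps1 ran from 4.80 through 5.07 to 5.47 under vehicle and from 4.62 through 5.0 to 5.89 under isoniazid, with a mean change of -0.03 (adjusted p = 0.722). Fdft1 ran from 7.35 through 9.15 to 9.97 under vehicle and from 6.80 through 9.13 to 10.29 under isoniazid. Its mean change was -0.00 (95% interval -0.16 to 0.16, adjusted p = 0.987).

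The enzymes that turn squalene into the sterol ring rose. Sqle, the squalene epoxidase, ran from 3.07 through a median of 3.89 to 5.92 under vehicle and from 3.11 through 4.24 to 7.24 under isoniazid. Many of its levels were near the lower quartile of all genes, 3.54, where RMA compresses differences. It rose in 24 strains, by 0.47 on average (SE 0.13, adjusted p = 0.0074), and the call was lost without animal number 4 (adjusted p = 0.0767). Lss, which closes lanosterol, ran from 6.42 through 6.81 to 7.33 under vehicle and from 6.52 through 7.20 to 8.36 under isoniazid. Its isoniazid median lay close to the highest vehicle strain, DBA/2J, and it rose in 26 strains, by 0.34 on average (SE 0.06, adjusted p = 1.39e-04).

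Of the enzymes that trim lanosterol, Msmo1, Hsd17b7, Ebp and Dhcr7 rose, Tm7sf2 fell, and Cyp51, Lbr, Nsdhl and Sc5d did not pass. Msmo1, the sterol methyl oxidase, ran from 4.98 in PWK/PhJ through a median of 6.93 to 8.80 in BTBR T+ tf/J under vehicle and from 5.37 through 7.46 to 10.16 under isoniazid. It was 1.53-fold higher (log2 change 0.61, SE 0.14, adjusted p = 0.0011), with a rise in 24 strains. Hsd17b7, the ketoreductase of the same demethylation, ran from 7.57 through 8.28 to 8.99 under vehicle and from 7.80 through 8.60 to 9.47 under isoniazid. It rose in 28 strains, the most of any member, by 0.31 on average (SE 0.06, adjusted p = 3.11e-04). Nsdhl, the dehydrogenase that acts between them, ran from 5.10 through 6.12 to 7.34 under vehicle and from 4.99 through 6.43 to 8.28 under isoniazid. Its mean change was 0.22 (95% interval 0.03 to 0.42, adjusted p = 0.107).

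Dhcr7, which makes the final reduction to cholesterol, had the largest t of the members. It ran from 5.64 in MA/MyJ through a median of 7.02 to 7.76 in SJL/J under vehicle and from 5.16 through 7.30 to 8.16 under isoniazid, and it rose in 26 of 31 strains, by 0.42 on average (SE 0.07, adjusted p = 1.80e-05). Ebp, the sterol isomerase, ran from 10.19 through 10.75 to 11.07 under vehicle and from 10.59 through 10.81 to 11.63 under isoniazid. It rose in 25 strains, by 0.12 on average (SE 0.03, adjusted p = 0.0079).

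Cyp51, the lanosterol demethylase, ran from 4.58 through 5.85 to 7.37 under vehicle and from 4.14 through 5.88 to 8.18 under isoniazid. Its medians were nearly equal, and the mean change of 0.27 (95% interval -0.01 to 0.55, adjusted p = 0.186) came with strains from -1.36 in DBA/2J to 2.33 in C57Bl/6J. Sc5d, the desaturase before Dhcr7, ran from 7.13 through 8.92 to 9.61 under vehicle and from 7.88 through 8.79 to 9.96 under isoniazid. Its mean change was 0.02 (adjusted p = 0.81), while its second probe set gave -0.21, so its direction depends on the probe set.

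Tm7sf2 and Lbr both reduce the double bond that Cyp51 leaves in the ring, and Tm7sf2 stood out by falling. It ran from 8.20 in MA/MyJ through a median of 9.43 to 10.07 in SJL/J under vehicle and from 7.51 through 9.15 to 9.89 under isoniazid. It fell in 24 strains, with a mean change of -0.34 (SE 0.07, adjusted p = 2.35e-04). Lbr, which also anchors the nuclear lamina, ran from 5.73 through 6.34 to 6.75 under vehicle and from 5.24 through 6.24 to 6.71 under isoniazid, with a mean change of -0.08 (95% interval -0.19 to 0.03, adjusted p = 0.326). The difference between their changes was -0.26 ± 0.56 (SD, n = 31 strains, sign-flip permutation test, adjusted p = 0.0302 over 2 pairs), although Tm7sf2 had the lower change of the pair in 16 of 31 strains. That call was lost without animal number 3 (adjusted p = 0.0813), without animal number 4 (0.0944) and in the strains without deaths (0.0659).

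In LG/J the vehicle animals had Tm7sf2 levels of 9.28, 9.52, 9.54 and 8.99, and the isoniazid animals 8.24, 8.03 and 7.90. In BALB/cJ they were 9.70, 9.83, 9.84 and 9.76 against 8.52, 8.73, 8.88 and 8.68. In both strains each isoniazid animal lay below each vehicle animal. Tm7sf2 passed within 5 strains, lower in each of LG/J, BALB/cJ, DBA/2J, PWK/PhJ and NZW/LacJ. In LG/J and BALB/cJ it was the 1 member that passed, against 2.96% and 1.55% of all genes.

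The sensing genes showed no change that passed over the strains. Srebf2 ran from 6.64 through 7.05 to 7.37 under vehicle and from 6.70 through 7.06 to 7.52 under isoniazid, with a mean change of 0.04 (95% interval -0.03 to 0.10, adjusted p = 0.542). Scap changed by -0.06 (95% interval -0.12 to 0.00, adjusted p = 0.169). Scap levels ran from 9.24 through 9.65 to 9.87 under vehicle and from 9.03 through 9.51 to 9.93 under isoniazid, and the ranges of both groups overlapped almost fully, as they did for Srebf2.

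Insig1, itself a target of SREBP, ran from 7.41 through 8.46 to 9.32 under vehicle and from 7.24 through 8.53 to 10.02 under isoniazid, with a mean change of 0.20 (95% interval 0.02 to 0.38, adjusted p = 0.118). Insig2 ran from 10.74 through 11.74 to 12.97 under vehicle and from 10.65 through 11.67 to 12.98 under isoniazid, with a mean change of 0.04 (95% interval -0.08 to 0.17, adjusted p = 0.704). Their changes differed by 0.16 ± 0.77 (SD, n = 31 strains, sign-flip permutation test, adjusted p = 0.27). The range of strains was wide for Insig1, from -0.89 in DBA/2J to 1.81 in C57Bl/6J, and narrower for Scap, from -0.42 in SEA/GnJ to 0.20 in PL/J.

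Of the transport genes, Stard4, which carries cholesterol between membranes, ran from 6.06 in PWK/PhJ through 8.60 to 9.52 under vehicle and from 6.15 through 8.76 to 9.88 under isoniazid. It rose in 23 strains, by 0.30 on average (SE 0.08, adjusted p = 0.0068), a call lost without animal number 4 (adjusted p = 0.0655). Scarb1, the receptor that takes cholesterol esters from HDL, ran from 9.15 in MA/MyJ through 10.41 to 10.79 under vehicle and from 8.90 through 10.62 to 11.30 under isoniazid. It rose in 25 strains, by 0.16 on average (SE 0.04, adjusted p = 0.0018), and its other probe sets gave 0.16 and 0.11. In KK/HIJ, where it was the 1 member that passed (0.0606% of all genes), its vehicle animals were at 9.78, 9.90, 9.72 and 9.73 and its isoniazid animals at 10.40, 10.40, 10.47 and 10.31, with no overlap.

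Abca1, which exports cholesterol to apolipoproteins, fell by 0.09 (SE 0.03, adjusted p = 0.0469), a call lost in 27 of 45 other settings. In C58/J it went the other way, from 9.93, 10.04, 10.01 and 9.67 to 10.56, 10.47, 10.17 and 10.34, with each isoniazid animal above each vehicle animal. Mylip, a ubiquitin ligase that marks lipoprotein receptors for degradation and is an LXR target, ran from 6.67 through 7.33 to 8.28 under vehicle and from 6.16 through 7.13 to 8.47 under isoniazid. It fell by 0.21 (SE 0.05, adjusted p = 0.0016), with a fall in 23 strains, and passed in all 45 other settings. Nr1h3, the LXR alpha receptor, changed by 0.03 (95% interval -0.02 to 0.08, adjusted p = 0.518). Macrophages also express Abca1 and Mylip. The 14 macrophage markers had mean strain levels of 6.30 to 8.62 under vehicle and 5.91 to 8.94 under isoniazid, 10 of them fell, and their part in these falls was not tested.

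Within the 10 scan dates, 11 members (Sqle, Idi1, Fdps, Lss, Cyp51, Dhcr7, Msmo1, Hsd17b7, Mvk, Ebp and Scarb1) had a mean change above 0 on all 10, and Tm7sf2 and Mylip were below 0 on all 10. Of these, Fdps and Cyp51 did not pass over the strains. The dates split the same animals, and the share of all genes with the same sign on all 10 is not given here. The within-date changes ran from 0.30 to 0.90 for Msmo1, from 0.30 to 0.78 for Dhcr7 and from -0.51 to -0.16 for Tm7sf2. Stard4 was above 0 on 9 dates and Pmvk below 0 on 9. Hmgcs1, Fdft1 and Sc5d were above 0 on 6 dates and below on 4. With scan date as a term, 11 members rose and 4 fell, and 20.8% of all genes passed.

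The response of the pathway differed widely between strains. The isoniazid effect depended on strain for 21 of the 28 members (F test of interaction, animals as replicates, limma), against 17% of all genes. That share includes dim genes, and the share without them is not given here. The 7 others were Lbr, Srebf2, Scap, Stard4, Abca1, Nr1h3 and Mylip. The highest F values were 4.12 for Ebp, 3.42 for Dhcr7, 3.37 for Fdps and 3.32 for Insig1. The count depends on the arrays with animal number 1 in all strains. Without them 5 members passed, against 9.36% of all genes. It was 15 without animal number 2 (7.24% of all genes), 14 without number 3 (12.1%) and 20 without number 4 (9.32%). Without C57Bl/6J it was 16 (16% of all genes).

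Over 18 synthesis genes (without Lbr and Acat2) the mean change was 0.20 ± 0.42 (SD over 31 strains), and it was above 0 in 22 strains. It was highest in C57Bl/6J at 1.37, LP/J at 1.16 and A/J at 0.75, and lowest in DBA/2J at -0.67, NON/LtJ at -0.30 and NOR/LtJ at -0.24. The value in A/J came from 2 isoniazid animals, and no gene passed within that strain. Of strains with ancestry shared with C57Bl/6J, C57BLKS/J had 0.62, C58/J 0.04 and C57BR/cdJ -0.08, and 129S1/SvImJ, related to LP/J, had 0.05. These strains were set side by side after their values were seen. The changes of 5 members (Sqle, Fdps, Cyp51, Mvd and Insig1) were higher in C57Bl/6J than in C57BR/cdJ (limma, adjusted over all genes), against 0.0882% of all genes. Between LP/J and 129S1/SvImJ 0 members and 0% of all genes passed in the same limma fit, and 13 members and 5.14% of all genes had an unadjusted p under 0.05.

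**Figure D2:**
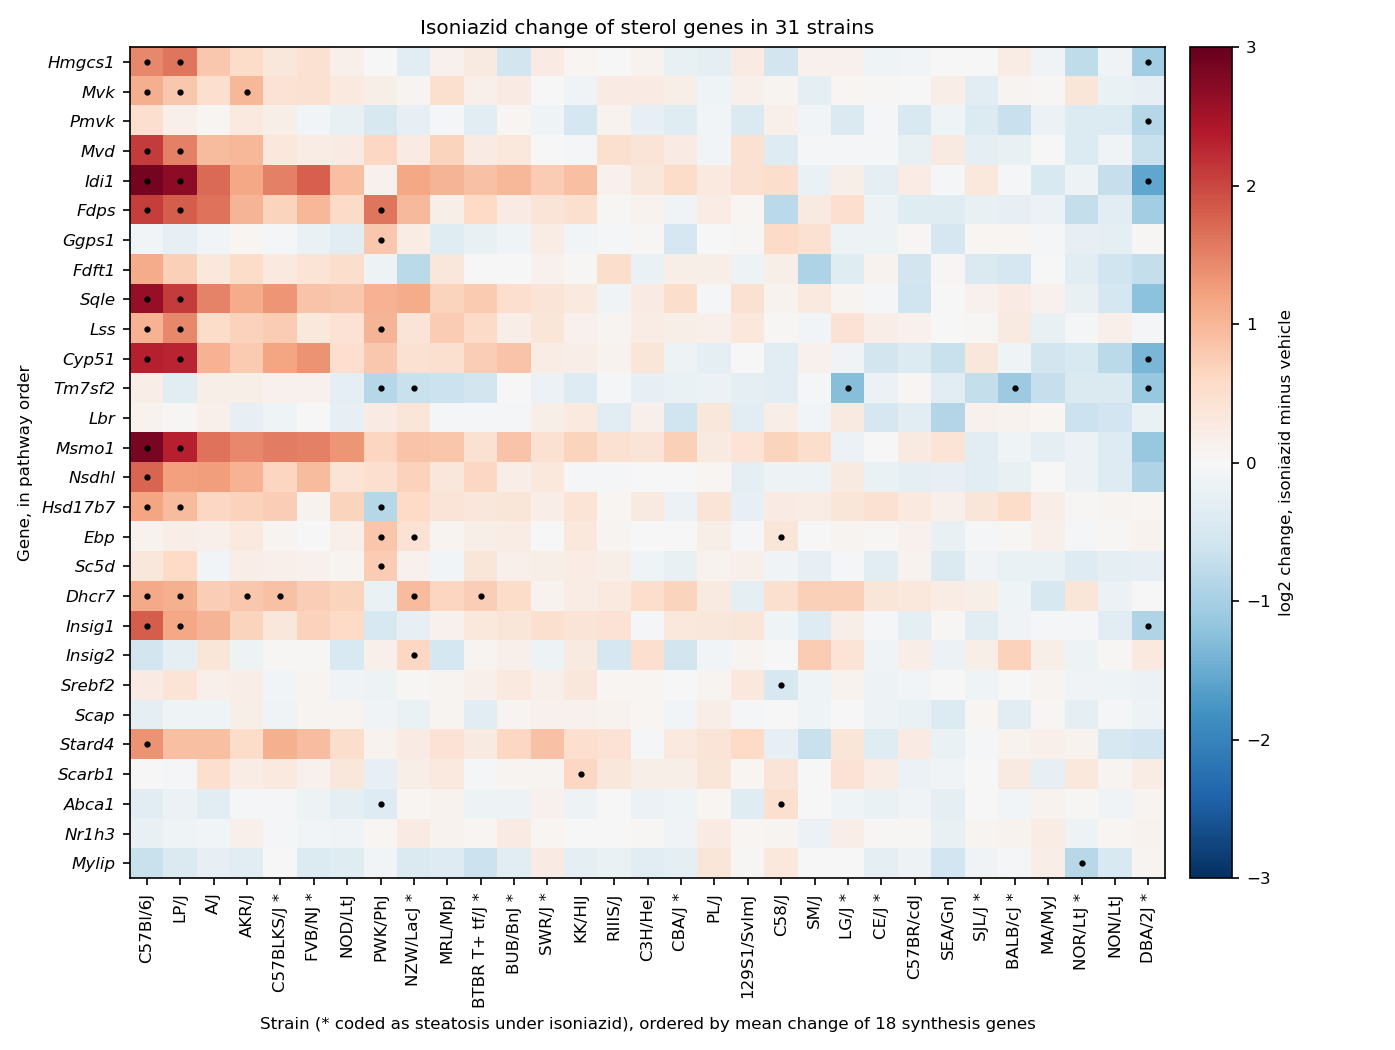
Isoniazid change (log2, isoniazid minus vehicle; colour from -3 to 3) of the 28 measured members in pathway order (rows) in 31 strains (columns), ordered by the mean change of 18 synthesis genes. Dots mark an adjusted p under 0.05 within the strain and stars mark steatosis strains; C57Bl/6J and LP/J at the left carry 14 and 12 dots, and DBA/2J at the right carries 6.

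In C57Bl/6J, 14 members passed, all higher, where 0.375% of all genes passed. They were 12 enzymes (Hmgcs1, Mvk, Mvd, Idi1, Fdps, Sqle, Lss, Cyp51, Msmo1, Nsdhl, Hsd17b7 and Dhcr7) with Insig1 and Stard4. Msmo1 was at 7.29, 7.51, 7.02 and 7.42 in the vehicle animals and at 10.16, 9.70, 10.51 and 10.26 in the isoniazid animals (change 2.85, SE 0.45, adjusted p = 1.07e-05). The lowest treated animal lay more than 2 log2 units above the highest control. Insig1 was at 8.23, 8.23, 7.86 and 8.52 against 10.16, 9.63, 10.14 and 10.13 (change 1.81, SE 0.28), again with no overlap. Hmgcs1 was at 9.99, 10.18, 9.60 and 10.38 against 11.52, 11.00, 11.94 and 11.49 (change 1.45, SE 0.32, adjusted p = 0.0084). Leaving out any 1 of the 8 animals left 11 to 16 members called. The lowest count was without isoniazid animal 3, its 1 narrow-spread array (0.0937% of all genes called). The highest was without isoniazid animal 2 (1.34%).

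In LP/J 12 members passed, all higher, against 0.81% of all genes, and all 12 were among the 14 of C57Bl/6J. Msmo1 was at 7.36, 7.58, 7.06 and 7.54 in the vehicle animals and at 10.91, 9.15 and 9.08 in the isoniazid animals. Hmgcs1 was at 9.14, 9.45, 9.27 and 9.41 against 12.20, 10.15 and 10.40. The treated animals lay above all controls for both genes, and the first treated animal lay far above the other two. Its array was one of narrow spread. Without it 0 members passed, against 0.435% of all genes, so the count of 12 in LP/J rests on that animal. Without all narrow-spread arrays, 4 passed, and the share of all genes in that setting is not given here.

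DBA/2J went the other way, with 6 members lower (Hmgcs1, Pmvk, Idi1, Cyp51, Tm7sf2 and Insig1) and none higher, against 5.76% of all genes called. Its vehicle animals varied: Msmo1 was at 9.14, 7.02, 10.27 and 7.87, against 6.33, 8.18, 6.79 and 8.43 under isoniazid, so the groups overlapped and Msmo1 did not pass (change -1.14, SE 0.45, adjusted p = 0.125). Hmgcs1 was at 10.55, 9.21, 11.34 and 9.31 against 8.26, 9.47, 8.94 and 9.56 (change -1.05, SE 0.32, adjusted p = 0.0285), also with overlap. Pmvk was at 7.42, 7.03, 8.31 and 7.29 against 5.97, 6.94, 6.50 and 7.20. Vehicle animals 1 and 3 were the high ones for these 3 genes. The count fell to 1 without vehicle animal 3 (5.73% of all genes called) or isoniazid animal 1 (5.89%). It fell to 2 without vehicle animal 1 (4.39%) or isoniazid animal 3 (2.3%), and rose to 11 without vehicle animal 2 (7.94%). It was 6 without the narrow-spread array, vehicle animal 4 (2.46%), and 11 when all 21 narrow-spread arrays were left out of the fit. With scan date as a term it was 4. The shares of all genes with the 21 arrays left out and with scan date are not given here.

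**Figure D3:**
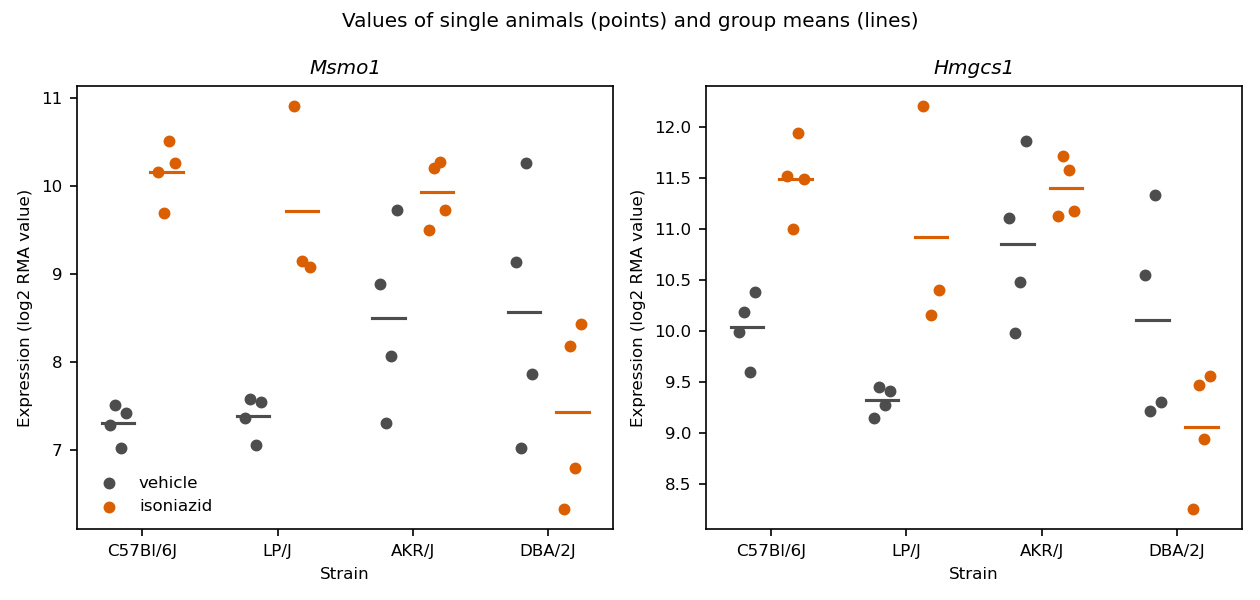
Msmo1 (left) and Hmgcs1 (right) in single animals (points, log2 RMA value) of 4 strains with the group means as lines. Treated animals lie above all controls in C57Bl/6J and LP/J, where 1 treated LP/J animal is at 10.91 for Msmo1, and the controls of DBA/2J and AKR/J are spread over more than 2 log2 units for Msmo1.

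AKR/J had 2 members higher (Mvk and Dhcr7), against 2.72% of all genes, and its vehicle animals were spread in the same way. Msmo1 was at 8.88, 7.31, 8.06 and 9.73 under vehicle and at 9.50, 10.21, 10.28 and 9.73 under isoniazid, with Hmgcs1 at 11.11, 9.98, 10.48 and 11.86 against 11.13, 11.71, 11.58 and 11.18. The highest vehicle animal, number 4, lay within the treated group for Msmo1 and above all treated animals for Hmgcs1. Without it 12 members passed, against 4.03% of all genes. Without the narrow-spread array, vehicle animal 1, 1 member passed, against 1.82% of all genes. When all 21 narrow-spread arrays were left out, 4 members passed, and the share of all genes in that setting is not given here.

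PWK/PhJ, a wild-derived strain, had 5 members higher (Fdps, Ggps1, Lss, Ebp and Sc5d) and 3 lower (Tm7sf2, Hsd17b7 and Abca1), against 15.1% of all genes called. Ebp was at 10.77, 10.62, 11.07 and 10.77 in the vehicle animals and at 11.56, 11.98, 11.45 and 11.54 in the isoniazid animals (change 0.82, SE 0.09, adjusted p = 7.20e-14). Hsd17b7, higher in 28 strains, was here at 8.62, 8.36, 8.85 and 8.76 against 7.89, 7.87, 7.76 and 7.67. In both genes the groups did not overlap. Fdps was at 6.79, 6.50, 6.77 and 6.85 against 7.33, 9.31, 7.81 and 8.87, so that 2 treated animals rose much more than the others. Leaving out single animals left 7 to 10 members called, against 11.4% to 16.7% of all genes.

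NZW/LacJ had Dhcr7, Ebp and Insig2 higher and Tm7sf2 lower, against 12.7% of all genes called. Its Dhcr7 was at 6.03, 6.40, 6.77 and 5.96 under vehicle and at 7.07, 7.48, 7.09 and 7.35 under isoniazid, with no overlap. Its Insig2 was at 10.49, 10.27, 10.95 and 11.27 against 11.39, 11.55, 11.33 and 11.16, where 1 treated animal lay below 1 control. C58/J had Ebp and Abca1 higher and Srebf2 lower, against 4.92% of all genes. Its Srebf2 was at 7.24, 7.25, 7.21 and 7.04 against 6.92, 6.62, 6.80 and 6.45. In NOR/LtJ 1 member passed, Mylip, at 6.82, 7.19, 7.02 and 6.92 against 5.82, 7.03, 5.49 and 6.30, where 1 treated animal lay among the controls (5.09% of all genes passed). Treated animals 1 and 3, at 5.82 and 5.49, were on narrow-spread arrays, and the call without them is not given here. Dhcr7 was the 1 member that passed in BTBR T+ tf/J (2.28% of all genes) and in C57BLKS/J (0.926%), higher in both, and 18 strains had no member that passed.

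Members also differed between the strains before treatment. Among vehicle animals, 27 of the 28 differed between strains, Ggps1 being the exception, against 53.4% of all genes. This share, too, includes dim genes, and the share without them is not given here. The highest F values were 20.3 for Scarb1, 16.6 for Sc5d and 11.9 for Dhcr7. Sc5d ran from 7.13 in PWK/PhJ to 9.61 in NZW/LacJ, and Insig2 from 10.74 in NZW/LacJ to 12.97 in C58/J. BTBR T+ tf/J had the highest vehicle mean of 8 members (Sqle, Msmo1, Fdps, Mvd, Mvk, Pmvk, Insig1 and Srebf2), and its mean over the 18 synthesis genes was 8.03, the highest, against 6.53 in C58/J, the lowest. A sequence variant under a probe can lower a gene's signal in all animals of a strain, and its part in these strain levels was not tested.

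Many of the synthesis genes moved with Hmgcs1. Hmgcs1 was set against the other 27 members in 3 ways, with p-values adjusted over the 27 in each. Over the 31 strains, 19 members had isoniazid changes correlated with that of Hmgcs1, 17 positively and 2 (Abca1 and Nr1h3) negatively. A Pearson r of 0.5 or more was found for 16 of the 27, against 0.342% of all genes. Of the 20 genes on the array most like Hmgcs1 by this measure, 12 were members. Each strain change is a difference between means of a few animals. Single animals of the same group also varied together, as given below (Idi1 with Hmgcs1, r 0.84). Such shared variation between animals enters the strain changes, and its part in these correlations was not tested. The correlations therefore do not by themselves show a shared response of the strains to isoniazid.

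Mvd had an r of 0.83 (Spearman rho 0.59), Sqle 0.81 (rho 0.67), Cyp51 0.81 (rho 0.69) and Insig1 0.79 (rho 0.63). Their adjusted permutation p of 3e-05 rests on the smallest p that 100000 resamples can give. Without C57Bl/6J and LP/J, the strains farthest from the median of Hmgcs1, r was 0.66 for Mvd, 0.66 for Sqle, 0.64 for Cyp51 and 0.64 for Insig1. Without these strains 12 of the 19 relations still passed, and 7 did not (Fdft1, Dhcr7, Hsd17b7, Pmvk, Sc5d, Srebf2 and Nr1h3). By rank over all 31 strains 17 of the 19 passed. For Dhcr7 r went from 0.46 (rho 0.45, adjusted p = 0.0203 by rank) to 0.24 and for Hsd17b7 from 0.54 (rho 0.47, adjusted p = 0.0141) to 0.28. For Sc5d it went from 0.51 (rho 0.51, adjusted p = 0.0081) to 0.30, while Mvk, from 0.67 to 0.45, still passed. Pmvk, from 0.54 to 0.35, and Nr1h3, from -0.43 to -0.21, were the 2 that also did not pass by rank (adjusted p = 0.0933 and 0.0786), so these relations rest on the 2 strains. Abca1 had -0.46 (adjusted p = 0.0183) and -0.44 without them. Insig2, at -0.21 (adjusted p = 0.3), Ebp, at -0.02 (0.92), and Scarb1, at -0.13 (0.534), did not pass. The enzymes Tm7sf2, at 0.37 (adjusted p = 0.0555), Lbr, at 0.20 (0.3185), and Ggps1, at -0.14 (0.5058), also did not.

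In vehicle animals the strain means of 12 members were correlated with those of Hmgcs1, all positively, and 8 reached an r of 0.5, against 0.287% of all genes. Cyp51 had 0.61 (rho 0.61, adjusted p = 0.0046), Idi1 0.56 (rho 0.60), Msmo1 0.55 (rho 0.57) and Srebf2 0.52 (rho 0.50, adjusted p = 0.0102). Without AKR/J and NOR/LtJ these were 0.53, 0.51, 0.52 and 0.46, and 8 of the 12 relations passed. Shared variation between single animals also enters these vehicle means, and its part was not tested.

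The third way used single animals as deviations from the mean of their own strain and treatment, a measure added after the values were seen. Over the 235 arrays 21 members were correlated with Hmgcs1, all positively, and 16 reached an r of 0.5, against 0.276% of all genes. The highest were Idi1 at 0.84, Nsdhl at 0.80, Cyp51 at 0.79 and Fdps at 0.79. Stard4 had 0.74 and Insig1 0.65. Insig2 had -0.19 (adjusted p = 0.086), and Abca1, Scarb1, Nr1h3 and Mylip lay between 0.03 and 0.10. Of the 20 genes on the array most like Hmgcs1, 14 were members. The points share the array and its processing, and without the narrow-spread arrays 19 members passed.

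**Figure D4:**
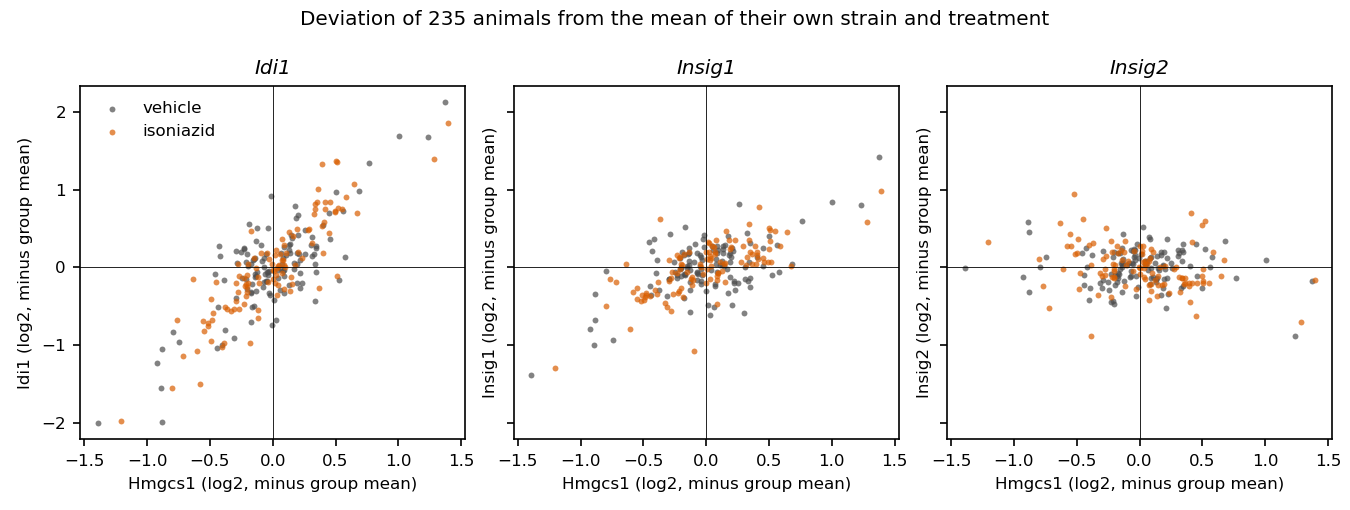
Deviation of single animals from the mean of their own strain and treatment (log2), for Hmgcs1 on the horizontal axes and Idi1, Insig1 and Insig2 on the vertical axes, in 235 animals. Idi1 (r 0.84) and Insig1 (r 0.65) rise with Hmgcs1 in vehicle and isoniazid animals, and Insig2 (r -0.19) does not.

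Steatosis strains and the others were compared to ask whether the sterol genes responded differently where fat built up. In the 13 steatosis strains 6 members passed, Dhcr7, Hsd17b7 and Scarb1 higher and Tm7sf2, Pmvk and Mylip lower, against 10.2% of all genes (5.74% higher and 4.47% lower). In the 18 other strains 9 passed, all higher (Sqle, Idi1, Lss, Dhcr7, Msmo1, Hsd17b7, Mvd, Mvk and Ebp), against 8.28% of all genes (4.16% higher and 4.13% lower). The first count was 3 without any 1 of BALB/cJ, CE/J, NZW/LacJ or animal number 2. The second was 6 without any 1 of A/J, AKR/J, LP/J or animal numbers 3 and 4. In strains without deaths, 3 and 5 members passed. The shares of all genes in these settings are not given here. The test of the difference itself called 0 members and 0% of all genes. At an unadjusted p under 0.05 it called 1 member, Mvd, and 2.71% of all genes.

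Mvd changed by -0.01 ± 0.31 (SD, n = 13 strains) in steatosis strains and by 0.43 ± 0.64 (SD, n = 18 strains) in the others, a difference of -0.44 (95% interval -0.81 to -0.08). Msmo1 changed by 0.34 ± 0.76 against 0.80 ± 0.83, with a difference of -0.46 (95% interval -1.01 to 0.09). The mean over the 18 synthesis genes was 0.10 ± 0.35 in steatosis strains and 0.28 ± 0.45 in the others. The differences lay below 0 for 23 of the 28 members. Many members changed together over the strains, so the 23 are not independent, and the share of all genes below 0 is not given here. Deaths had occurred in 9 strains, of which 1 was coded for steatosis. In vehicle animals 0 members differed by status, 0 also unadjusted, where 4.06% of all genes passed unadjusted.

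**Figure D5:**
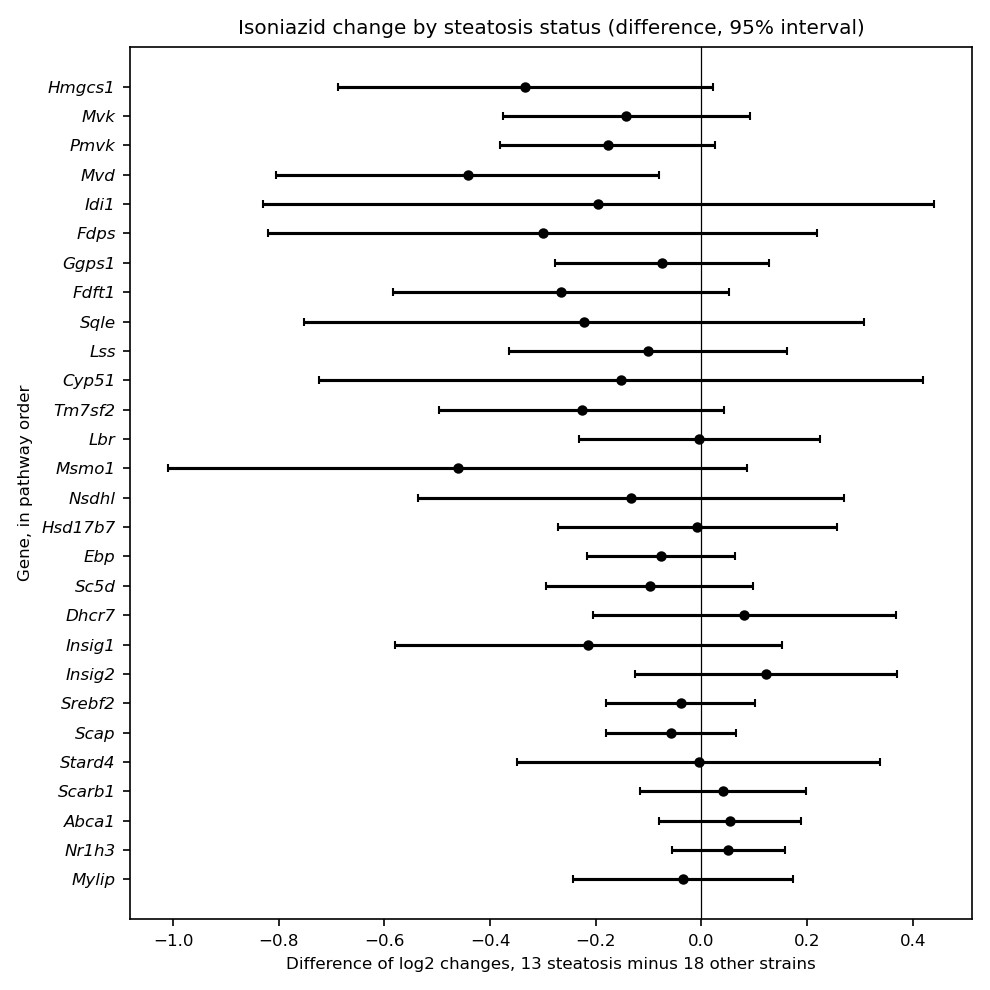
Difference in isoniazid change (log2) between 13 steatosis strains and 18 other strains for the 28 measured members, points with 95% intervals. The interval of Mvd, -0.81 to -0.08, is the 1 that leaves out 0, and no member passed after adjustment over all genes.

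Neighbouring lists were read beside the members over the 31 strains, against the same 20% of all genes called. Of 12 genes that process SREBP or degrade sterol enzymes, Ubxn8 rose (0.21) and Pgrmc1 fell (-0.10), while Srebf1, which encodes the SREBP of fatty acid synthesis, changed by 0.16 (adjusted p = 0.135). Of 17 fatty acid targets of SREBP, 8 rose and 2 fell (median 0.13). Elovl6 and Elovl5, which lengthen fatty acids, had log2 changes of 0.58 and 0.32, and Acaca, which makes malonyl-CoA, 0.26. Of 11 genes of the isoprenoid branch, 5 rose and 2 fell. Rabggtb, a subunit of the enzyme that prenylates Rab proteins, changed by -0.34, Fntb, a farnesyltransferase subunit, by 0.18 and Trit1, which modifies transfer RNA with an isoprenoid, by 0.16.

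Of 11 LXR targets, 0 rose and 5 fell (median -0.07), with Scd1, a fatty acid desaturase that is also a target of SREBP, at -1.50, Pltp, the phospholipid transfer protein, at -0.31 and Lpl, a lipoprotein lipase, at -0.37. Of 17 genes of sterol transport and hydrolysis, 4 rose and 8 fell (median -0.06). Npc2, which passes cholesterol out of lysosomes, changed by -0.28 and was lower in all but 1 strain. Osbpl1a, an oxysterol-binding protein, changed by 0.20 and Stard5, a carrier related to Stard4, by 0.28. Pltp, Lpl and Npc2 are also made by macrophages, whose markers had a median change of -0.22; their part in these falls was not tested.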

How the data were processed

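Each array held liver RNA of a separate animal. The authors' deposited data are log2 RMA values per probe set of Affymetrix 3′ arrays, made with Affymetrix Power Tools according to the submitters' processing notes, which give no version. RMA removes a shift common to all genes and compresses low values. Of 44721 probe sets, 34717 carried 1 gene symbol, which gave 18146 genes by the probe set with the highest mean. The number of arrays limits the precision.

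For each gene and strain the vehicle mean was subtracted from the isoniazid mean, and the 31 differences were tested with limma 3.58.1 (lmFit and eBayes) in R 4.3.3, two-sided, with Benjamini-Hochberg adjustment over all genes and a threshold of 0.05. Within-strain effects, the interaction and strain differences among vehicle animals came from a limma fit of all strain and treatment groups (173 residual degrees of freedom). Correlations and paired differences used two-sided permutation tests with 100000 resamples. Of 4 planned pairs 2 were tested, since Nr1h2, Soat1 and Soat2 were not analysed here.

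The members, lists and tests were chosen with earlier results of these data known. Full values are given for the 10 members with the largest t, the pairs and members passing the test of interaction, and up to 3 genes with the largest t, plus Srebf1, are named from other lists. The fit was tested on simulated data. Alternatives were other normalisation, filters, weights, scan date, animal number as a block, only the 22 strains without deaths, and animals, strains or narrow-spread arrays left out.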

Additional observations from a re-analysis of the deposited data

Results flagged for a closer look

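Of 41 groups of 4 animals checked for a value far from the others, 1 was found, and chance alone marks about 5% of groups. Insig1 in the isoniazid animals of C57Bl/6J was at 9.63 in 1 animal and between 10.13 and 10.16 in the other three. All 4 lay above the vehicle animals, whose highest value was 8.52.

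The isoniazid effect differed between strains for 21 members by the F test of interaction, and the F value is given for each. Among the enzymes it was 4.12 for Ebp, 3.42 for Dhcr7, 3.37 for Fdps, 3.23 for Cyp51, 3.18 for Mvk and 3.13 for Msmo1. It was 3.12 for Idi1, 2.93 for Mvd, 2.90 for Tm7sf2, 2.78 for Hsd17b7, 2.63 for Hmgcs1 and 2.50 for Nsdhl. It was 2.25 for Fdft1, 2.23 for Sqle, 2.14 for Pmvk, 2.06 for Lss, 1.98 for Sc5d and 1.95 for Ggps1. Among the others it was 3.32 for Insig1, 2.59 for Insig2 and 2.15 for Scarb1. Without the arrays of animal number 1 in all strains, 5 members passed, against 9.36% of all genes.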

How the results depend on the processing

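Over the strains, 8 to 14 members rose and 3 or 4 fell when single strains or animal numbers were left out (15.7% to 20.9% of all genes passed). Without the narrow-spread arrays 10 rose and 4 fell (24.9% of all genes). With a 1.5-fold threshold 1 rose and 0 fell (0.298% of all genes). With animals as replicates, 12 members passed in steatosis strains, 19 in the others, 12 for vehicle level by status, 6 genes of SREBP processing and 8 LXR targets. Animals of 1 strain share genotype and steatosis status, so these counts treat them as independent when they are not. In that setting 28.1% of all genes passed over the strains, against 20% with the strain as the replicate. In strains without deaths, 3 members passed in steatosis strains and 5 in the others, and the shares of all genes are not given here. Without the narrow-spread arrays, 5 genes of SREBP processing passed, and 4 members passed in LP/J, 11 in DBA/2J and 4 in AKR/J. The shares of all genes called within those strains in that setting are not given here. Without C57Bl/6J and LP/J, 12 members had changes correlated with that of Hmgcs1. With single strains or animal numbers left out, the counts were 3 to 6 in steatosis strains (3 without BALB/cJ, CE/J, NZW/LacJ or animal number 2). They were 6 to 12 in the others and 5 to 22 for the interaction, where 7.24% to 18.1% of all genes passed. With single animals left out they were 0 to 12 in LP/J, 1 to 11 in DBA/2J and 1 to 12 in AKR/J. The Tm7sf2 and Lbr difference was -0.33 to -0.22 with animal numbers left out and -0.27 in strains without deaths. Fdft1, near 0, turned sign with scan date (0.0117), with centred arrays (5.77e-04) and in strains without deaths (9.25e-04), and ran from -0.0405 to 0.0508 with strains or animal numbers left out. Sc5d turned to -0.0687 with the mean of its probe sets and ran from -0.0011 to 0.0704 with strains or numbers left out, and Ggps1 ran from -0.0786 to 0.0121. The causes were not tested.

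Animal numbers do not pair the samples: over 111 same-numbered pairs the correlation of deviations had a median of -0.02 (range -0.42 to 0.78), and 23 exceeded 0.1. With the number as a replicate block, 10 members rose and 3 fell, and 19% of all genes passed. In that setting 19 members had an interaction (share of all genes not given here) and the Tm7sf2 and Lbr difference was -0.27. RMA levels near background, as for Sqle, limit how small a change can be seen.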
